A study of Mus musculus with 17 samples.

Results

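Liver and hippocampus of mice from 1 feeding study were compared over 4 diets, to see which gene families set the tissues apart and which they share. All 17 arrays of the series were used, 10 of liver and 7 of hippocampus, taken by the tissue named in their titles. Liver gave 5 RNAs, each on 2 array types (chip A and chip B), namely 2 RNAs of mice on the control diet and 1 RNA each of mice on fungal oil, fish oil or both oils. Hippocampus gave 4 RNAs, 1 for each diet, and the RNA of mice fed both oils was used on chip B only, so chip A has 3 hippocampus arrays. The mice were male Rj:NMRI, an outbred stock, with no genetic change or other treatment named. They were kept 10 per cage and fed until day 57 or 58 either the control diet without test oil, 1.1% of a fungal oil rich in arachidonate, 1.9% of a fish oil rich in docosahexaenoate, or both. The labels name the source as liver or hepatocytes and as brain or hippocampus, and bulk tissue of this kind holds many cell types. Of 10 mice per diet 5 were selected, and nothing says whether an array holds 1 mouse or a pool, so the p-values below reflect no more than how these RNAs vary, and that variation may be technical. In bulk RNA, fewer cells of a type and less RNA per cell cannot be told apart.

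The liver makes most proteins of the blood plasma, disposes of nitrogen, bile acids and foreign compounds, and moves between making and burning fat. Its main cell, the hepatocyte, expresses these genes under factors such as HNF1, HNF4 and C/EBP. The hippocampus is a cortical brain region for memory, built of excitatory and inhibitory neurons with astrocytes, oligodendrocytes, microglia and vessels. Its neurons spend much of their transcription on vesicle release, receptors, channels, calcium signalling and the cytoskeleton of long processes. Both tissues need ribosomes, mitochondria and proteasomes, and they often use different genes of a family for the same step.

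Each array was scaled to the same trimmed mean of 150, values under a floor of 15 were set to the floor, and each chip was fitted on its own with limma, with tissue and diet as terms. Intensities below are scaled and have no unit, differences are log2 of liver minus hippocampus with their standard error (SE), and levels of different genes are not compared. Probe sets at or above the median of the mean of the tissue means were tested, 3265 of 6529 on chip A and 3270 of 6540 on chip B. A probe set was called when its adjusted p was under 0.05 and its difference at least 2-fold, and was called alike when the 95% interval of the difference lay within 2-fold either way. On chip A the liver array of mice fed both oils has no partner of its diet, so it enters the means but not the fitted difference.

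On chip A 636 probe sets (19.5%) were higher in liver, 995 (30.5%) were higher in hippocampus and 996 (30.5%) were alike. On chip B the counts were 632 (19.3%), 1025 (31.3%) and 786 (24.0%). Of the 6137 genes with a single symbol on the chips 3552 were tested, each by its brightest probe set. Of these 734 (20.7%) were higher in liver, 1052 (29.6%) were higher in hippocampus and 1022 (28.8%) were alike. Hippocampus thus had more called genes, but this split depends on scaling. The median difference over all probe sets was -0.25 for chip A and -0.31 for chip B, while scaling to a common median made it 0.08 and 0.05, with 825 liver and 811 hippocampus calls for chip A and 827 and 808 for chip B. Liver made up 39.0% and 38.1% of the called probe sets as scaled here, 50.4% and 50.6% after median scaling, and 45.9% and 46.1% after quantile normalization. List medians below are therefore read against the median of -0.25 over all tested genes.

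**Figure D1:**
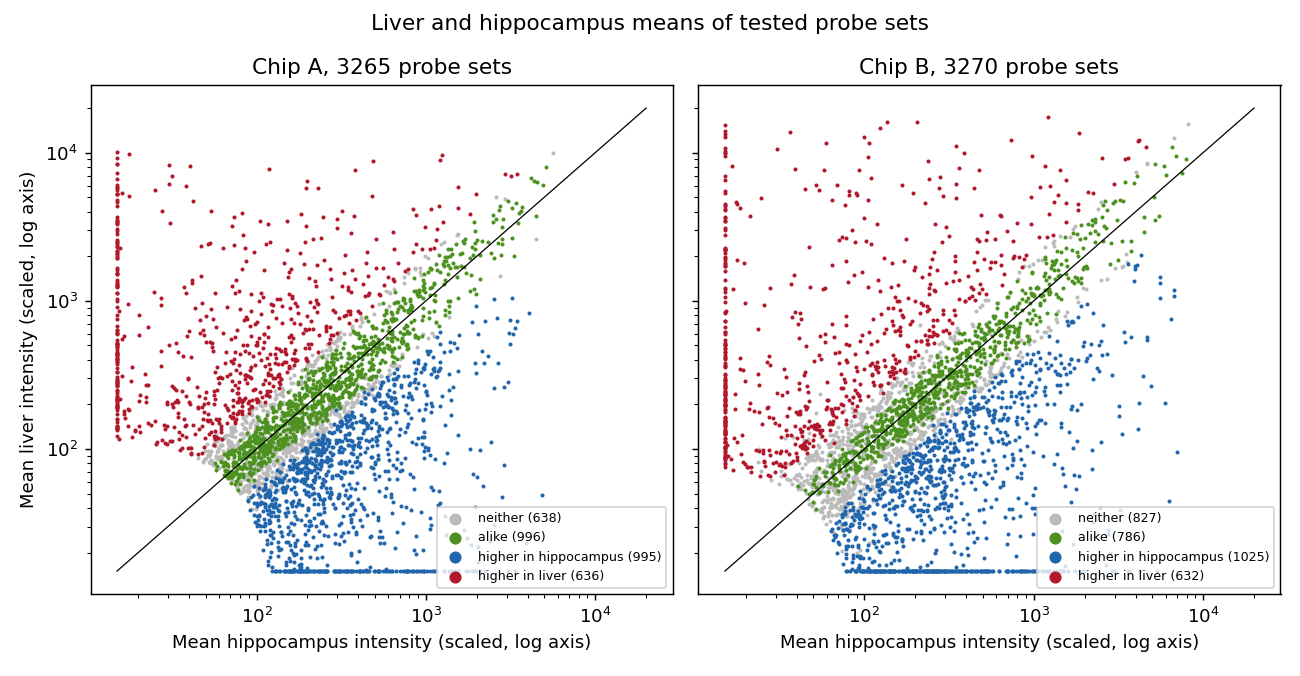
Mean intensity of each tested probe set in hippocampus (horizontal, log axis) and liver (vertical, log axis), chip A on the left and chip B on the right, with means under 15 drawn at the floor. Red points were higher in liver (636 and 632), blue points higher in hippocampus (995 and 1025), green points alike (996 and 786), and the line marks equal intensity.

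The arrays separated by tissue. Across tested probe sets of chip A, liver arrays correlated with each other at r between 0.947 and 0.962 and hippocampus arrays at r between 0.957 and 0.973, whereas liver against hippocampus gave 0.101 to 0.113. On chip B the ranges were 0.919 to 0.939, 0.935 to 0.955 and 0.228 to 0.281. These are correlations over probe sets, which are not independent, and the filter on the mean of both tissues lowers the r between them. The median absolute difference between tissues was 1.02 on chip A, and the median standard deviation within liver was 0.23 and within hippocampus 0.15, all on the log2 scale. Of 180 genes tested on both chips 143 had the same sign on both, and 77 of the 79 called on both were called the same way, from the same RNAs. The ratio of signal at the 3′ end to signal at the 5′ end, a measure of RNA integrity, was for Gapdh 1.89 to 3.26 in liver and 0.840 to 0.947 in hippocampus, and for Actb 3.32 to 4.17 and 1.33 to 1.55. Each of the 4 ratios differed between tissues without overlap (exact permutation test, two-sided, p = 0.0357, adjusted p = 0.0357, the smallest that 5 against 3 allows; the fish oil hippocampus array of chip B has no control probe values). The part of this in the differences below was not tested. Array titles also carry a different ending in each tissue, so tissue and any difference in handling cannot be told apart.

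The labels held against their markers. All 9 hepatocyte markers on the chips were tested and higher in liver, with a summed intensity of 63950 to 77904 in liver and 293 to 716 in hippocampus. Of 9 neuronal markers 8 were tested and all 8 were higher in hippocampus, with sums of 20 to 88 in liver and 10707 to 10813 in hippocampus. Myelin markers summed to 149 to 236 and 2244 to 2562, with 5 of 6 tested called for hippocampus. Astrocyte markers gave 6 of 8, but their sums overlapped (4740 to 5932 and 5183 to 5404), and 1 of them, Ndrg2, read 4458 to 5599 in liver and 2441 to 2683 in hippocampus (0.99, SE 0.07). Summed macrophage markers overlapped between tissues. Endothelial markers summed to 1329 to 1921 in liver and 438 to 632 in hippocampus, and blood markers to 8364 to 13723 and 3788 to 4878. These sums do not stand for every member. Of 3 tested endothelial markers 1 was called for liver, 0 for hippocampus and 1 was alike. Of 7 tested blood markers 2 were called for liver, 1 for hippocampus and 2 were alike. Of 5 tested choroid plexus markers, from a tissue that lies against the hippocampus, 2 were called for liver and 3 for hippocampus. They summed to 1754 to 2057 in liver, and varied between hippocampus RNAs, with a sum of 1557 to 4876. Ptgds, a prostaglandin synthase of meninges and choroid plexus, read 627 with the control diet, 3131 with fungal oil and 1852 with fish oil, and its part in other differences between these RNAs was not tested. Haemoglobin Hba-a1 read 6422 to 11799 in liver and 2123 to 3288 in hippocampus, with 1.86 (SE 0.18) as the difference, 0.91 and no call under quantile normalization, and a dimmer probe set of the opposite sign (-1.34).

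Promoters of the called genes differed in composition. RefSeq promoters (GRCm38.p6, 250 bases before to 50 after the start, the first one listed for each gene) were found for 596 of 734 liver genes, 839 of 1052 hippocampus genes and 824 of 1022 alike genes. Median GC content was 58.0% for liver genes, 62.7% for hippocampus genes and 60.7% for alike genes, beside 52.7% over all 27025 promoters. The observed over expected CpG ratio was 0.603, 0.781 and 0.806, beside 0.389 over all. Searched on either strand, the core promoter box TATAAA was in 13.1%, 7.39% and 8.62%, and 14.2% of all. The HNF1 half-site GTTAAT was in 8.05% of liver promoters, 2.98% of hippocampus promoters, 3.76% of alike promoters and 7.20% of all. The cAMP response element TGACGTCA was in 1.34%, 4.05% and 3.52%, and 1.88% of all, and the GC box GGGCGG in 55.2%, 65.2%, 64.7% and 35.9%. These shares are descriptions without a test, and the genes on the arrays are not a random draw from the table.

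4 promoters are shown because their genes mark the tissues in what follows, 2 for liver and 2 for hippocampus, each 300 bases and read 5′ to 3′ on the gene's strand. Capitals mark every match to the 4 motifs above. Fabp1 (chr6:71199629-71199928, plus strand), a fatty acid carrier of liver, has GTTAAT 107 bases and TATAAA 30 bases upstream of the start. Alb (chr5:90460620-90460919, plus strand), serum albumin, has GTTAAT 32 bases upstream. Sst (chr16:23890795-23891094, minus strand), the peptide somatostatin of inhibitory neurons, has TGACGTCA 48 bases upstream. Syp (chrX:7638330-7638629, plus strand), a protein of synaptic vesicles, has GGGCGG 67 and 49 bases upstream. A match is a description of letters and not of a bound site.
Fabp1: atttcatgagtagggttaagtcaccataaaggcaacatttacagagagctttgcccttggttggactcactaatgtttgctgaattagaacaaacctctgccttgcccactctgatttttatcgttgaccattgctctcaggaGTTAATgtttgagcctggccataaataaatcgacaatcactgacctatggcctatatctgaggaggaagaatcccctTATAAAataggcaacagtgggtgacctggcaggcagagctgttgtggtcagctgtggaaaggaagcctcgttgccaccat
Alb: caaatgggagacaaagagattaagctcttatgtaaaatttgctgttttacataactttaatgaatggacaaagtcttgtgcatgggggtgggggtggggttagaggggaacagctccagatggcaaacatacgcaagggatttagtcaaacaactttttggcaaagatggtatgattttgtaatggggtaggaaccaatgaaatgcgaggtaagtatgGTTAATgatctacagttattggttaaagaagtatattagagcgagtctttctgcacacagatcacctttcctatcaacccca
Sst: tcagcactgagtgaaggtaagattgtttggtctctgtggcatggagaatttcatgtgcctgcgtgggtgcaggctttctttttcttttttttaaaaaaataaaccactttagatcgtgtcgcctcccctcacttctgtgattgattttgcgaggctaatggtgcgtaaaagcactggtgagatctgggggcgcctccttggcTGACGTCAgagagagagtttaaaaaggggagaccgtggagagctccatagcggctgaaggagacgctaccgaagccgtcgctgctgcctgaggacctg
Syp: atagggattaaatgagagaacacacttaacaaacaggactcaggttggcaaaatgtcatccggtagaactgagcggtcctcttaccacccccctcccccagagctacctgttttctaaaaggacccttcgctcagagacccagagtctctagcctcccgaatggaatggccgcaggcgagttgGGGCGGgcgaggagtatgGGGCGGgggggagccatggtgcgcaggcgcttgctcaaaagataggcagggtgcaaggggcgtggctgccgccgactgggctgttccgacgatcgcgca

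Secreted plasma proteins were higher in liver by every tested member. Of 32 carrier and acute-phase genes on the chips 27 were tested and 27 were higher in liver, with a median difference of 6.00, and without the filter 29 of 32 were called. Tested members had to be bright in at least 1 tissue, so liver and hippocampus calls without the filter are given where they differ by more than 1 from those with it. Alike calls without the filter are given for some lists only. Albumin, Alb, read 13338 and 10865 in the control livers, 13469 with fungal oil, 13791 with fish oil and 12828 with both oils, and 60, 25, -21 and -7 in the hippocampus RNAs in the same diet order (8.97, SE 0.36). Liver was high in every diet and the groups did not overlap. Apoh, which binds phospholipid, was at the floor on all 4 hippocampus arrays and read 9461 to 10817 in liver, at least 667-fold higher. The protease inhibitor Serpina1a read 13961 to 17919 in liver and 155 to 241 in hippocampus (6.35, SE 0.10), and belongs to a family of near-identical copies that share probes. Haptoglobin Hp (7.72, SE 0.27) and the growth factor Igf1 (7.72, SE 0.16) were higher as well. Not all of them were confined to liver. Selenop, which carries selenium to the brain, read 8311 to 11202 in liver and still 891 to 1118 in hippocampus (3.31, SE 0.08), and Serpina3n read 1404 to 1951 and 435 to 449 (2.00, SE 0.12). Transthyretin Ttr, the thyroid hormone carrier, read 1167 to 1341 in liver and 305, 492 and 158 in hippocampus with control diet, fungal oil and fish oil (2.13, SE 0.25), where the choroid plexus is a known source.

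Clotting and complement genes followed the same course. Of 13 coagulation genes 11 were tested and 10 were higher in liver (median 5.56, and 12 of 13 without the filter). Prothrombin F2 read 7049 to 8361 in liver and 30 to 113 in hippocampus (7.31, SE 0.31). Plasminogen Plg was at least 442-fold and the fibrinogen chain Fgg at least 401-fold higher. Protein S, Pros1, a cofactor that many tissues make, read 394 to 502 in liver and 217 to 305 in hippocampus (0.76, SE 0.15) and was under 2-fold. All 11 complement genes on the chips were tested and higher in liver (median 6.16). C9, a part of the membrane attack complex, read 4361 to 4852 in liver and 11 to 26 in hippocampus (8.0, SE 0.17). The difference was smallest for C2, a protease of the classical pathway, at 490 to 593 and 95 to 109 (2.33, SE 0.09).

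Lipoprotein genes divided between the tissues. Of 16 on the chips 15 were tested, with 10 higher in liver, 4 higher in hippocampus and 1 alike. Apoa2 of high-density lipoprotein read 13777 to 18412 in liver and 106 to 152 in hippocampus (6.90, SE 0.14), and Apoc1 11271 to 14379 and 60 to 155 (7.04, SE 0.23). Apoe, the lipid carrier that astrocytes also secrete, was bright in both, at 9987 to 12394 and 4166 to 4890 (1.27, SE 0.05), as was the extracellular chaperone clusterin, Clu, at 6836 to 7630 and 2811 to 3135 (1.32, SE 0.07). Under quantile normalization the differences of Apoe and Clu were 0.16 and 0.30 and their calls were lost. Higher in hippocampus were Apod, a lipocalin of glia, which read 555 to 780 there and at most 24 in liver (-5.35, SE 0.21), lipoprotein lipase Lpl (-3.17, SE 0.19) and the receptor Vldlr (-3.30, SE 0.29). The fourth, the phospholipid transfer gene Pltp, read 16 to 93 in liver and 105 to 190 in hippocampus (-1.05, SE 0.34), and lost its call without the fungal oil RNA (-0.65) or fish oil RNA (-0.99) of either tissue and under either other scaling. The brightest tested probe set of Apoa1, the main protein of high-density lipoprotein, read only 64 to 110 in liver, near the dim end of the chip.

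Enzymes that clear drugs and steroids were higher in liver family by family. Of 19 cytochromes P450 of families 1 to 3 on the chips 14 were tested and 13 were higher in liver (median 6.98). Cyp2e1, which oxidises ethanol, read 9282 and 9295 in control livers, 9556 with fungal oil, 13302 with fish oil and 8778 with both, and was at the floor on the 3 hippocampus arrays, at least 662-fold higher. Cyp3a11 was at least 424-fold higher, and Cyp2c29 read 5064 to 7497 in liver and 19 to 41 in hippocampus (7.80, SE 0.12). Close members of these subfamilies can share probes. Cyp1a1, which liver expresses only when induced, read 25 to 113 and 87 to 124 and overlapped between tissues (-0.50, SE 0.42). Among 8 tested of 11 other P450 genes 5 were higher in liver, such as Cyp7b1, an oxysterol hydroxylase, at 792 to 1232 and 88 to 121 (3.21, SE 0.18). Glucuronosyl- and sulfotransferases were higher in liver in 5 of 5 tested of 8, and without the filter 5 were higher in liver and 3 alike. Carboxylesterases were higher in liver in 2 of 2.

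Glutathione transferases and aldehyde dehydrogenases showed exchanges within a family. Of 12 tested of 13 transferases 7 were higher in liver, 2 in hippocampus and 3 alike. Gsta3 read 5678 to 8005 in liver and at most 19 in hippocampus (8.80, SE 0.12). Gstp1 and Gstm1 were bright in both tissues, Gstp1 at 8698 to 12768 and 1199 to 1304 (3.01, SE 0.13) and Gstm1 at 5450 to 6913 and 1515 to 1579 (1.95, SE 0.09). Gstm5 of the same mu class went the other way, at 131 to 230 in liver and 814 to 1047 in hippocampus (-2.28, SE 0.16), and so did the microsomal Mgst3 (-1.39, SE 0.26). Of 10 tested of 13 alcohol and aldehyde dehydrogenases 8 were higher in liver, with Aldh2 of mitochondria at 4856 to 8270 and 263 to 316 (4.57, SE 0.11) and Adh1 at 3227 to 4811 and 45 to 60 (6.22, SE 0.13). Adh5, the widely expressed formaldehyde-clearing enzyme, was 2.96 (SE 0.10) higher in liver. Aldh18a1, which makes proline rather than breaking down an aldehyde, was higher in hippocampus (-1.22, SE 0.20), but under 2-fold with median or quantile scaling.

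Nitrogen disposal gave liver calls throughout. All 17 genes of the urea cycle and amino acid breakdown were tested and higher in liver, with a median of 6.49. In the urea cycle Otc was at least 195-fold and Arg1 at least 144-fold higher, and Ass1 read 7903 to 10539 in liver and 110, 171, 8 and 130 in hippocampus with control diet, fungal oil, fish oil and both oils (6.85, SE 0.55). Bhmt, which remakes methionine, was at least 489-fold higher, and Hpd of tyrosine breakdown at least 391-fold. Tdo2, which opens tryptophan, read 3967 and 4019 in control livers and 5211 to 6020 with the oils, against 20 to 32 in hippocampus (7.71, SE 0.12). Ornithine aminotransferase Oat, which brain also uses, differed least, at 1558 to 2493 and 471 to 590 (1.71, SE 0.13).

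Glucose release also belonged to liver. All 5 tested of 8 genes of gluconeogenesis and glycogen were higher there, and without the filter 5 were higher there and 2 alike. Glucose 6-phosphatase G6pc, which lets glucose out of the cell, read 981 and 1176 in control livers, 1239 with fungal oil, 1695 with fish oil and 560 with both, and 26 to 50 in hippocampus (5.08, SE 0.24). Fbp1 was at least 140-fold higher. Haem and iron genes gave 7 of 13 tested of 16 for liver, 0 for hippocampus and 2 alike. Hepcidin, Hamp, the iron hormone, read 4878 to 6389 in liver and 24 to 58 in hippocampus (7.12, SE 0.22). The ferritin chains differed from each other, since light chain Ftl1 read 11957 to 15096 and 1707 to 2028 (2.91, SE 0.06) whereas heavy chain Fth1 read 5471 to 6966 and 4745 to 5072 and was alike (0.33, SE 0.08), as was its dimmer probe set (-0.11).

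Genes for burning fat and genes for making it were both higher in liver. All 21 genes on the chips from the list for PPAR-alpha and the oxidation of fatty acids were tested, and 19 were higher in liver, with a median of 3.08, and the other two were not called. The receptor gene Ppara itself read 1188 to 1667 in liver and 20 to 140 in hippocampus (4.36, SE 0.49). Cpt1a, which admits fatty acids to mitochondria, read 611 and 876 in control livers and 1074 to 1301 with the oils, and 120 to 159 in hippocampus (2.85, SE 0.16). Acaa2 (5.01, SE 0.09) and Acadm (3.65, SE 0.14) of the beta-oxidation cycle were also higher, and Hadha less so, at 1053 to 1331 and 221 to 413 (1.77, SE 0.15). Crat, a carnitine acyltransferase, read 184 to 266 and 117 to 138 (0.77, SE 0.14), short of 2-fold. Peroxisomal genes gave 11 of 13 tested of 14 for liver, among them urate oxidase Uox (6.23, SE 0.13) and catalase Cat (4.51, SE 0.10). Pex14, a peroxisome docking protein, was called for hippocampus (-2.25, SE 0.73) but read -96 to 115 in liver, and lost its call under either other scaling, at the lower floor (-2.62), with no filter (-2.25), and without the liver fish oil RNA or the hippocampus control or fish oil RNA (-1.73, -1.99 and -1.73).

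In lipogenesis 8 of 11 genes, all tested, were higher in liver, 1 in hippocampus and 1 was alike. The exchange lay in the stearoyl-CoA desaturases, which make oleate from stearate. Scd1 read 9871 and 9944 in control livers, 8858 with fungal oil, 9639 with fish oil and 5610 with both, and 480, 406 and 575 in hippocampus (4.30, SE 0.09). Scd2 read 1681, 1728 and 1766 in hippocampus and was at the floor on all 5 liver arrays, at least 115-fold higher in hippocampus. Each tissue was thus bright for a different desaturase. Fasn and Acly, which build fatty acids from acetyl-CoA, were higher in liver (2.20, SE 0.31, and 2.28, SE 0.19). Of 10 tested of 13 cholesterol and bile acid genes 6 were higher in liver, 0 in hippocampus and 2 alike. The bile acid uptake carrier Slc10a1 was at least 295-fold higher in liver, and Baat, which couples bile acids to taurine, read 715 to 1487 and 9 to 80 (5.78, SE 0.46). Cyp7a1, the rate-limiting enzyme of bile acid synthesis, was dim, at 24 to 136 and 11 to 34 (1.83, SE 0.35), and the groups overlapped. The cholesterol enzymes Fdft1 (0.23, SE 0.09) and Lss (0.11, SE 0.11) were alike, and Hmgcs1, the synthase of their pathway, read 945 to 1690 and 618 to 879 (0.89, SE 0.18) and was not called, though it was without the fungal oil RNA (1.05) or fish oil RNA (1.00) of either tissue.

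Regulators of liver identity were mostly higher in liver. Of 28 listed liver transcription factors 18 were on the chips and 15 were tested, with 14 higher in liver (median 2.81). The gene of C/EBP-alpha, Cebpa, read 331 to 486 in liver and was at the floor on all 4 hippocampus arrays, at least 27.2-fold higher. The bile acid receptor Nr1h4 was at least 21.7-fold higher, Hnf4a read 86 to 190 and -15 to 24 (2.81, SE 0.28), and Foxa3 212 to 514 and 43 to 65 (2.84, SE 0.29). Rxra, the shared partner of many nuclear receptors, read -86 to 108 and -59 to 195 and overlapped (-0.83, SE 0.84).

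Interferon and antigen genes had more liver than hippocampus calls. Of 45 interferon and antigen genes on the chips 20 were tested, and 10 were higher in liver, 1 in hippocampus and 5 alike, and without the filter 15 were higher in liver, 1 in hippocampus and 15 alike. The hippocampus call was the class II gene H2-Aa, at 58 to 156 and 201 to 221 (-1.08, SE 0.23), lost under either other scaling and without the both-oils RNA of either tissue (-0.87), and the dimmer H2-Aa probe sets read 0.94, 0.25, 2.22 and -0.22, the third of them called higher in liver. B2m, the light chain of class I molecules, read 9357 to 10759 in liver and 323 to 434 in hippocampus (4.70, SE 0.10), and the heavy chains H2-D1 (4.12, SE 0.07) and H2-K1 (3.33, SE 0.11) were higher too, with probes that related class I genes may share. The immunoproteasome subunits Psmb8 (3.79, SE 0.38) and Psmb9 (1.53, SE 0.21) followed. Macrophage markers did not take 1 side, since Clec4f of Kupffer cells was at least 9.34-fold higher in liver and the receptor Csf1r, bright in microglia, was higher in hippocampus (-2.95, SE 0.34). Their sum was 1595 to 2650 in liver and 1956 to 1976 in hippocampus.

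**Figure D2:**
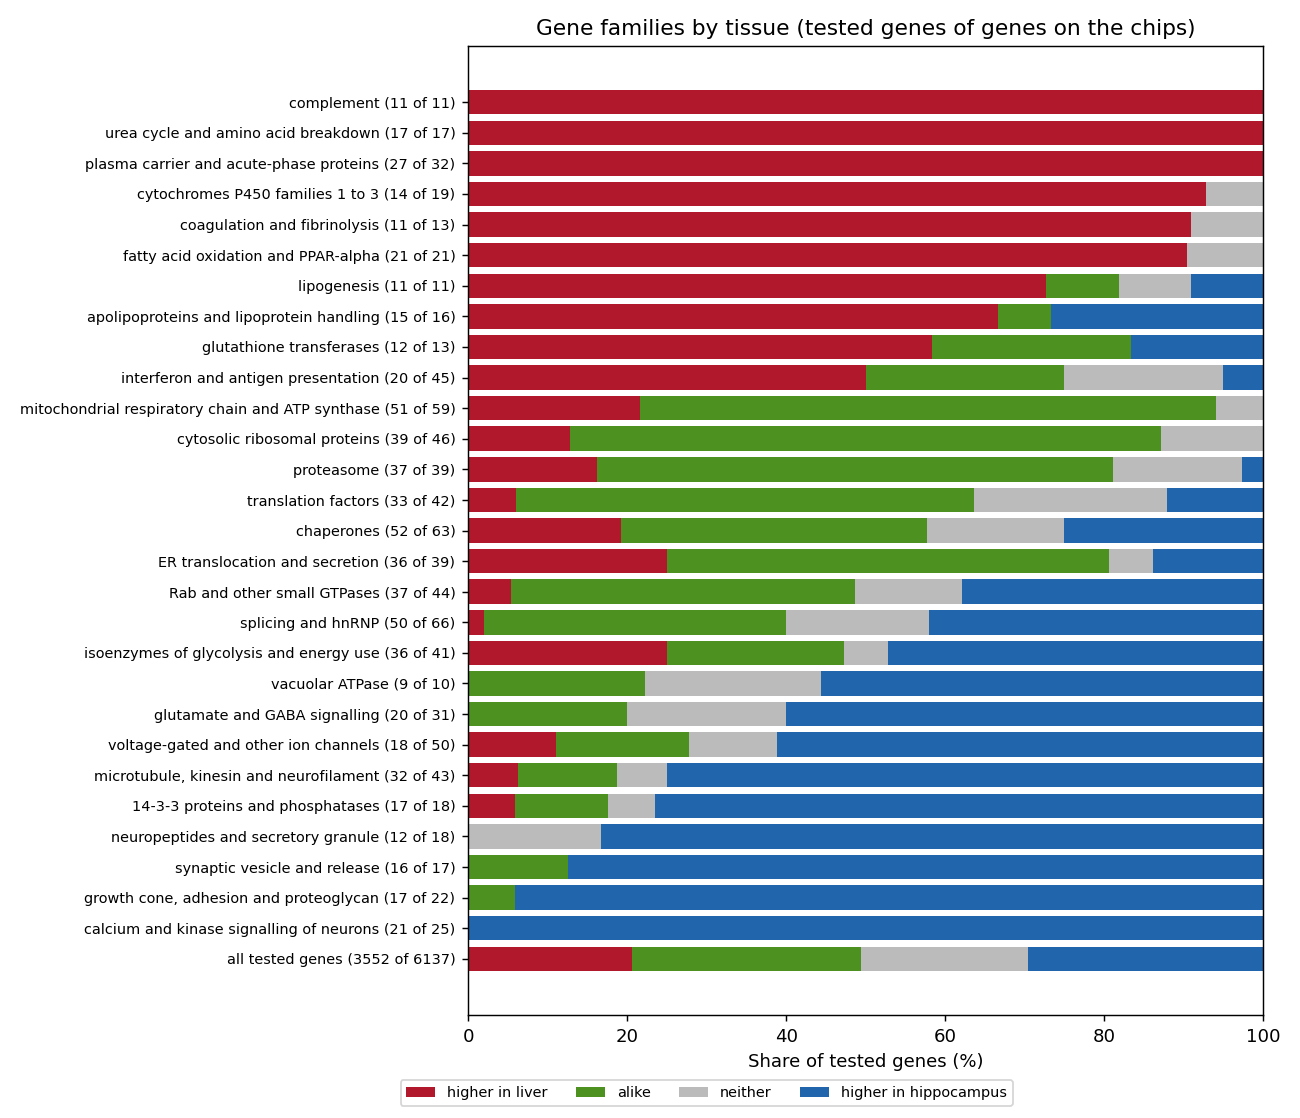
Share of tested genes (horizontal, percent) that were higher in liver (red), alike (green), not called (grey) or higher in hippocampus (blue) in 28 gene lists and over all tested genes, with tested genes of those on the chips in brackets. Complement and urea cycle genes are red throughout, and calcium and kinase genes of neurons blue throughout. The respiratory chain (72.5%) and cytosolic ribosomal proteins (74.4%) are mostly green, against 28.8% of all genes.

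The release machinery of synapses was mostly higher in hippocampus. Of 17 synaptic vesicle genes on the chips 16 were tested, 14 were higher in hippocampus, 0 in liver and 2 were alike (median -3.78). Synaptophysin, Syp, read 2765, 2867, 3065 and 2593 in the hippocampus RNAs with control diet, fungal oil, fish oil and both oils, and -17 to 75 in liver (-6.78, SE 0.40). The fusion proteins Snap25, at 798 to 835 against at most 25 (-5.77, SE 0.16), and Vamp2 (-3.11, SE 0.43) and the calcium sensor Syt1 (-5.20, SE 0.18) were higher as well. Nsf, the ATPase that takes spent fusion complexes apart, read 1093 to 1112 and 37 to 63 (-4.48, SE 0.18). Rab3a, a vesicle GTPase, read 84 to 146 in liver and 105 to 127 in hippocampus and was alike by this dim probe set (-0.13, SE 0.20), as was Syt2 (0.20, SE 0.17).

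Transmitter receptors and ion channels had the same bias with more dim members. Of 31 glutamate and GABA genes 20 were tested, with 12 higher in hippocampus, 0 in liver and 4 alike. Gria2, the AMPA receptor subunit that sets calcium permeability, read 1830 to 2009 in hippocampus and was at the floor on all 5 liver arrays, at least 130-fold higher, and Gria1 read 1468 to 1964 and 44 to 62 (-5.05, SE 0.17). Gad1, the enzyme that makes GABA, was at least 126-fold higher, and Dlg4, a scaffold of excitatory synapses, 583 to 690 against 24 to 50 (-4.02, SE 0.24). The astrocyte glutamate transporter Slc1a2 was dim here, at 111 to 152 and 12 to 57 (-1.99, SE 0.43), and lost its call without the hippocampus control RNA (-1.62). Of 50 channel genes only 18 were tested, 11 higher in hippocampus and 2 in liver, and without the filter 18 were higher in hippocampus, 2 in liver and 15 alike. Kcna1 was at least 34.5-fold and its partner Kcnab2 at least 51.5-fold higher in hippocampus. The liver calls were Kcnj11, the pore of the ATP-sensitive potassium channel, at 303 to 366 and 54 to 102 (2.12, SE 0.22), and Clcn7, a chloride transporter of lysosomes (2.13, SE 0.36).

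The listed calcium and kinase signalling genes of neurons gave hippocampus calls for every tested member. They were listed as genes of neurons and do not stand for calcium and kinase signalling at large. All 21 tested of 25 genes were higher in hippocampus (median -4.38, and 23 of 25 without the filter). Calm2, a calmodulin gene, read 1010 to 1073 in liver and 4864 to 5932 in hippocampus (-2.38, SE 0.08). The kinase Camk2b read 2233 to 2669 in hippocampus and 17 to 179 in liver (-4.97, SE 0.49). Prkar1b, a regulatory subunit of protein kinase A, was at least 118-fold higher, and the G protein subunit Gnao1 at least 74.9-fold. Among 14-3-3 proteins and phosphatases, adaptors and enzymes that act on phosphorylated proteins in every cell, 13 of 17 tested of 18 were higher in hippocampus, 1 in liver and 2 alike. Ywhaz read 235 to 285 and 2438 to 2604 (-3.29, SE 0.09) and Ywhag 681 to 767 and 3299 to 3577 (-2.20, SE 0.07). The exception was Ppp2r5a, a targeting subunit of phosphatase 2A, at 700 to 1505 and 326 to 384 (1.69, SE 0.19).

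Genes for the cytoskeleton of long processes and the surface of growing axons were mostly higher in hippocampus. Of 32 tested of 43 microtubule and neurofilament genes 24 were higher in hippocampus, 2 in liver and 4 alike, and 27 and 2 of 43 without the filter. Tubulin Tuba1a read 1128 to 1906 in liver and 5410 to 5752 in hippocampus (-1.99, SE 0.13), neurofilament Nefl was at least 64.9-fold higher, and Mapt, the gene of tau, read 125 to 145 and 450 to 497 (-1.78, SE 0.12). The kinesin light chains differed in direction, as Klc1 was at least 201-fold higher in hippocampus by its brightest probe set and Klc4 higher in liver (1.45, SE 0.21). Of 4 Klc1 probe sets 2 dimmer ones were higher in liver. Among growth cone and adhesion genes 16 of 17 tested of 22 were higher in hippocampus. Basp1, a growth cone phosphoprotein, read 5370, 4667, 5710 and 5666 there by diet and was at the floor in liver, at least 356-fold higher. Thy1 was at least 283-fold and Gap43 at least 38.4-fold higher, whereas N-cadherin, Cdh2, was alike (355 to 503 and 353 to 414; 0.15, SE 0.09).

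Neuropeptides, glia and neural regulators completed the hippocampal side. Of 12 tested of 18 neuropeptide and granule genes 10 were higher in hippocampus. Chgb of secretory granules read 2425 to 3430 against at most 27 (-7.47, SE 0.22), and the prohormone processor Cpe 2949 to 3668 against at most 23 (-7.60, SE 0.17), although a dimmer Cpe probe set of chip B was alike (0.20). Sst read 916, 1615, 1607 and 1948 with control diet, fungal oil, fish oil and both oils (-4.54, SE 0.43), and Cck 1305 to 1718 (-4.31, SE 0.56). Of 11 tested of 22 neural transcription factors 8 were higher in hippocampus and 11 of 22 without the filter, among them Tcf4 (-4.74, SE 0.46), Neurod2 (-4.68, SE 0.57) and Sox2, at least 20.4-fold. The myelin gene Mobp was at least 67.5-fold higher and Cldn11 of myelin junctions read 471 to 579 against at most 20 (-4.97, SE 0.17). Sox10, the oligodendrocyte regulator, read 104 to 134 and 102 to 164 and was alike by its probe set (-0.09, SE 0.21).

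Some steps common to both tissues were served by different genes. Of 36 tested of 41 isoenzymes and carriers of energy use 9 were higher in liver, 17 in hippocampus and 8 alike. The liver and alike counts lay near the shares over all tested genes (20.7% and 28.8%), and the hippocampus count above its share (29.6%). Liver was bright for the glucose carrier Slc2a2, at 2175 to 2969 and 46 to 130 (4.99, SE 0.21), and hippocampus for Slc2a1 of the blood-brain barrier, at 16 to 36 and 219 to 309 (-3.34, SE 0.21), and for neuronal Slc2a3 (-3.63, SE 0.17). Lactate dehydrogenase divided in the same way, with Ldha at 3966 to 5198 and 1386 to 1669 (1.56, SE 0.10, and 0.89 and not called under quantile normalization) and Ldhb at least 98.1-fold higher in hippocampus. The muscle-type pyruvate kinase Pkm read 3468 to 4152 in hippocampus and -88 to 166 in liver (-7.32, SE 0.67), where the liver enzyme is another gene. Brain creatine kinase Ckb (-6.32, SE 0.60), neuronal enolase Eno2 (-5.60, SE 0.28) and Aldoa, at 967 to 1318 and 6365 to 7270 (-2.52, SE 0.11), were higher in hippocampus. Gapdh, the step between them, was alike at 6502 to 8519 and 5627 to 6290 (0.20, SE 0.10).

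Fatty acid carriers, junctions and filaments gave further pairs. Fabp1 read 7753 to 10491 in liver and was at the floor in hippocampus, at least 557-fold higher, whereas Fabp7 of glia read 21 to 46 and 381 to 435 (-3.52, SE 0.22) and Fabp3 was at least 26.9-fold higher in hippocampus. Gap junctions of liver cells use Gjb1 (2.54, SE 0.10) and Gjb2 (4.27, SE 0.23), and those of astrocytes Gja1, at least 58.6-fold higher in hippocampus. Krt8 and Krt18, the keratin pair of simple epithelia, were at least 55.5-fold and 36.0-fold higher in liver, and the astrocyte filament Gfap read 81 to 147 and 414 to 502 (-2.10, SE 0.20). The aquaporins Aqp8 (at least 29.9-fold higher in liver) and Aqp4 (-3.31, SE 0.37) differed in direction likewise. Of the mitochondrial ADP/ATP carriers Slc25a4 read 4 to 55 in liver and 2132 to 3137 in hippocampus (-6.58, SE 0.44), while Slc25a5 read 2913 to 3243 and 1555 to 1868 (0.86, SE 0.07). Elongation factor Eef1a1 was alike at 8094 to 12396 and 6170 to 7060 (0.70, SE 0.12), and its neuronal copy Eef1a2 read 3036 to 3093 in hippocampus and at most 67 in liver (-7.02, SE 0.43).

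Metal and oxidant defence was split too. Mt3, the brain metallothionein, read 1962 to 2249 in hippocampus and at most 46 in liver (-6.64, SE 0.31), and Mt1 (-4.55, SE 0.58) and Mt2, at 241 to 510 and 886 to 1068 (-1.64, SE 0.12), were also higher there. The antioxidant enzymes Sod1, at 2706 to 3303 and 620 to 650 (2.21, SE 0.08), and Prdx1, at 6832 to 8993 and 1380 to 1534 (2.43, SE 0.07), were higher in liver. Over the whole list 8 of 17 tested of 21 genes were higher in liver and 4 were alike. The 3 hippocampus calls were the metallothioneins above. Over all tested genes 20.7% were higher in liver, 29.6% were higher in hippocampus and 28.8% were alike.

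**Figure D3:**
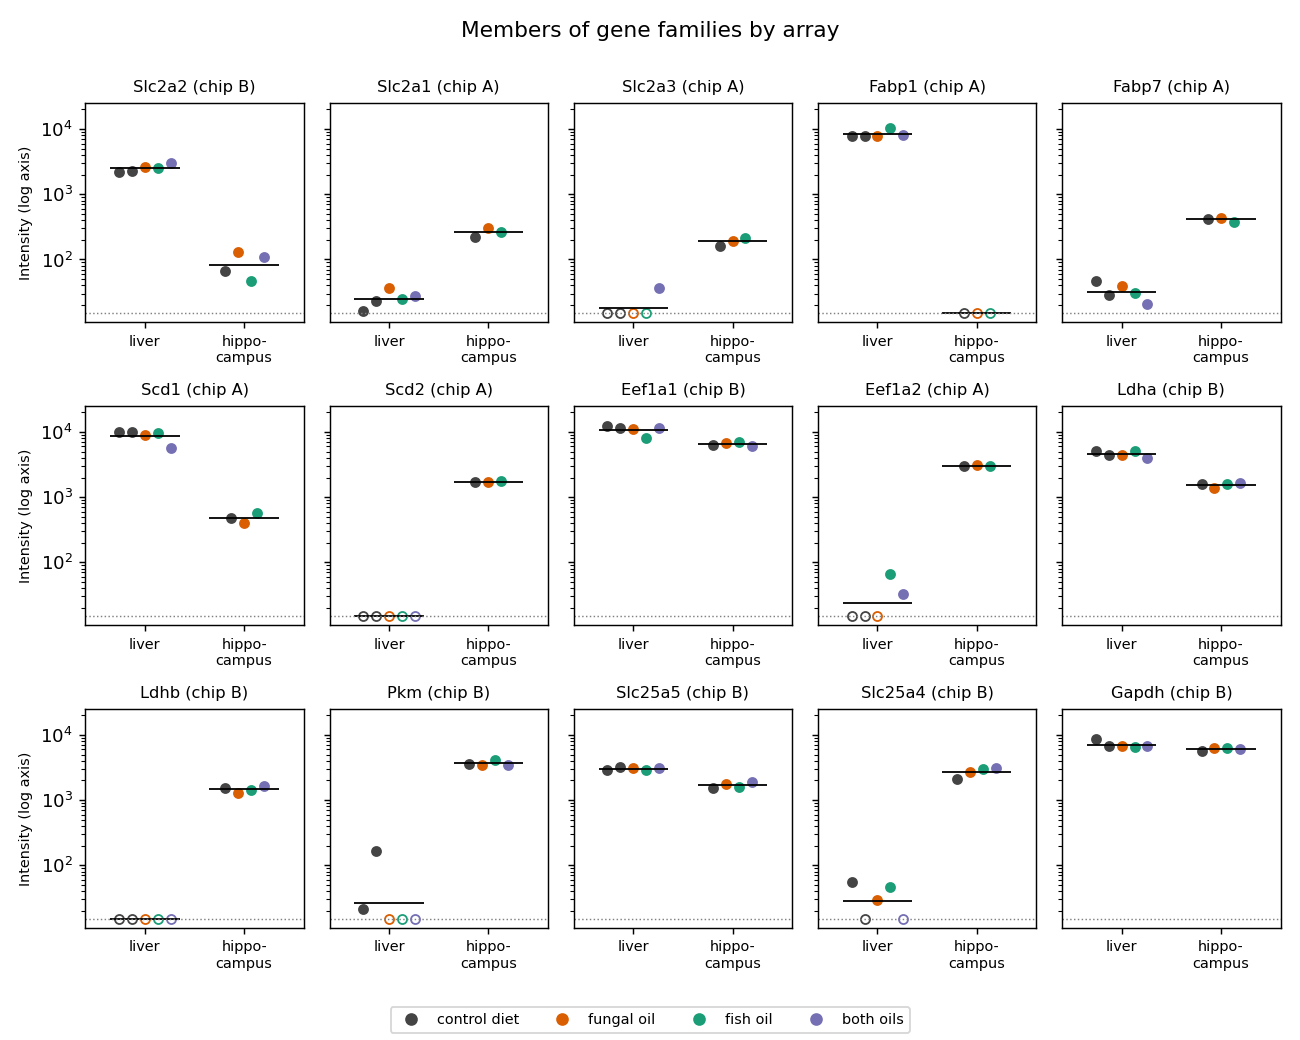
Scaled intensity (log axis) of members of gene families on each liver array and each hippocampus array, coloured by diet, with open circles for values under the floor of 15 (dotted line) and black bars for the mean of log2 values. Slc2a2, Fabp1, Scd1 and Ldha lie higher in liver, Slc2a1, Slc2a3, Fabp7, Scd2, Eef1a2, Ldhb, Pkm and Slc25a4 higher in hippocampus, and Gapdh and Eef1a1 lie close together.

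Cytosolic ribosomal proteins, the respiratory chain and the proteasome were mostly alike between the tissues. Of 39 tested of 46 cytosolic ribosomal proteins 29 were alike (74.4%, beside 28.8% of all genes), 5 were higher in liver and 0 in hippocampus. Rps24 read 2640, 2657, 2419, 2457 and 2552 in liver and 2562, 2430, 2710 and 2507 in hippocampus (-0.01, SE 0.06), so its arrays were intermingled. Rpl3 (-0.27, SE 0.05) and Rpl41 (0.50, SE 0.09) were alike, and Rplp0, at 4864 to 6219 and 1958 to 2387 (1.36, SE 0.09, but 0.51 under quantile normalization), and Rpl36 (1.38, SE 0.10) were higher in liver. The list median was 0.36 but depended on scaling, at 0.69 after median scaling, with 19 alike, and -0.20 after quantile normalization, with 32 alike. Ribosomal genes have many processed copies that can share probes.

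Of 51 tested of 59 genes of the respiratory chain and ATP synthase 37 were alike (72.5%), 11 were higher in liver and 0 in hippocampus (median 0.56). Cox4i1 of cytochrome oxidase read 7771 to 8805 and 5130 to 5288 (0.68, SE 0.05), Cox8a 3310 to 4221 and 4388 to 4506 (-0.22, SE 0.09) and Atp5b of the ATP synthase 3242 to 3606 and 3241 to 3704 (-0.04, SE 0.07), with a dimmer Atp5b probe set higher in liver (1.67). The liver calls included Uqcrq of complex III, at 3447 to 4020 and 775 to 918 (2.15, SE 0.07). After median scaling 20 were higher in liver and 19 alike, and after quantile normalization 5 were higher in liver, 2 in hippocampus and 38 alike. Of 37 tested of 39 proteasome genes 24 were alike (64.9%), such as Psmb1, at 1299 to 1567 and 1103 to 1378 (0.24, SE 0.10, with a dimmer set on chip A at -1.62), and 6 were higher in liver, among them Psmb8 and Psmb9.

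Translation factors, folding and secretion had alike shares between those of the families above and the 28.8% over all tested genes. Of 33 tested of 42 translation factors 19 were alike (57.6%), 2 higher in liver and 4 in hippocampus. Of 52 tested of 63 chaperones 20 were alike (38.5%), 10 higher in liver and 13 in hippocampus, and without the filter 9 and 16 of 63. The liver and hippocampus counts of tested chaperones lay near the shares over all tested genes (20.7% and 29.6%). Ppia, a cytosolic prolyl isomerase, read 4568 to 5448 and 4817 to 5571 and was alike (-0.02, SE 0.06), and so was Hspa8 (-0.53, SE 0.06). P4hb, which forms disulfide bonds in the endoplasmic reticulum, read 2480 to 2750 and 134 to 198 (3.88, SE 0.11), and mitochondrial Hspd1 3171 to 4683 and 1148 to 1294 (1.65, SE 0.10). The cytosolic Hsp90aa1 (-1.76, SE 0.13) and Fkbp1a, at 409 to 685 and 3236 to 4161 (-2.73, SE 0.14), were higher in hippocampus. Of 36 tested of 39 genes of translocation and secretion 20 were alike, 9 higher in liver and 5 in hippocampus. Under quantile normalization Rpl3, Cox8a, Atp5b, Ppia and Hspa8 were called higher in hippocampus (-1.24, -1.16, -1.02, -1.03 and -1.49), and under median scaling Eef1a1 and Cox4i1 were called higher in liver (1.07 and 1.06).

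Splicing, ubiquitin and vacuolar ATPase genes had few liver calls, against a background of 29.6% of tested genes called for hippocampus and 20.7% for liver. Of 50 tested of 66 splicing and hnRNP genes 21 were higher in hippocampus, 1 in liver and 19 alike (median -0.79, and 22 and 3 of 66 without the filter), and after median scaling 13 were higher in hippocampus and the median was -0.44. Hnrnpk (-0.62, SE 0.08) and Ddx5 (-0.59, SE 0.15) were alike. Snrpn, the neuronal counterpart of the splicing protein Snrpb, read 130 to 271 in liver and 2970 to 3413 in hippocampus (-4.10, SE 0.19). Snrpb itself was alike (-0.31, SE 0.16) by its brighter probe set, beside 0.89 in a dimmer one. Of 31 tested of 43 ubiquitin genes 10 were higher in hippocampus, a share near that background, 1 in liver and 9 alike, with Skp1 alike (-0.48, SE 0.13) and Ubqln2 at 61 to 75 and 795 to 818 (-3.56, SE 0.13). The vacuolar ATPase, which acidifies lysosomes and synaptic vesicles, gave 5 of 9 tested of 10 for hippocampus and 0 for liver (median -1.36). Its A subunit Atp6v1a was at least 74.0-fold higher in hippocampus and Atp6v1b2 read 452 to 632 and 2180 to 2533 (-2.27, SE 0.12), while the membrane subunit Atp6v0e was alike (0.16, SE 0.14).

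Most called differences were seen in each diet on its own. Of 636 chip A probe sets called for liver 595 were at least 2-fold higher in liver with the control diet, 583 with fungal oil and 584 with fish oil, and 516 (81.1%) in all 3. For hippocampus 926, 913 and 933 of 995 were at least 2-fold higher there, and 816 (82.0%) in all 3. On chip B, with 4 diets, 459 of 632 liver calls (72.6%) and 726 of 1025 hippocampus calls (70.8%) were at least 2-fold in every diet. Those same arrays made the calls, so these shares describe them and test nothing. In hippocampus, some of the genes named above read within a narrow range over diets, as Gria2 at 1830 to 2009 and Nsf at 1093 to 1112, and others within a wider one, as Sst at 916 to 1948 and Ptgds at 627 to 3131.

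In liver some genes of fat metabolism varied widely over diets, and 4 of them are given below. Others varied less, as Acaa2 and Fabp1, with a highest over lowest liver value of 1.20 and 1.35. The 4 were not the only wide ones, since this value was 4.89 for Cyp4a10, 4.09 for Angptl4 and 3.49 for Cd36. Fabp5, a fatty acid carrier found in both tissues, read 3421 and 3218 in the control livers, 608 with fungal oil, 394 with fish oil and 244 with both oils, and 815, 789, 832 and 831 in hippocampus. It was therefore higher in liver with the control diet and lower in liver with each oil, and its fitted tissue difference averaged these (-0.12, SE 0.58). Without the hippocampus control RNA, which drops the control diet from the comparison, Fabp5 was called higher in hippocampus (-1.07). Apoa4, an intestinal and hepatic apolipoprotein, read 2011 and 2062 in control livers, 791 with fungal oil, 639 with fish oil and 118 with both, and was at the floor on the 3 chip A hippocampus arrays. A dimmer Apoa4 probe set of chip B had the opposite sign (-4.35). Acly read 3156 and 3319, 1588, 1781 and 889 in liver and 422 to 466 in hippocampus, and Fasn 5666 and 5033, 2783, 4213 and 991 in liver and 526 to 726 in hippocampus. The interaction of tissue with oil (any oil against control) was -3.10 (SE 0.52) for Fabp5, but its adjusted p was 0.146. It was -2.38 (SE 1.30, adjusted p = 0.727) for Apoa4, -1.19 (SE 0.47, adjusted p = 0.627) for Acly and -1.20 (SE 0.84, adjusted p = 0.987) for Fasn. These 4 genes were chosen after their values were seen, and liver has 1 RNA of each oil diet.

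**Figure D4:**
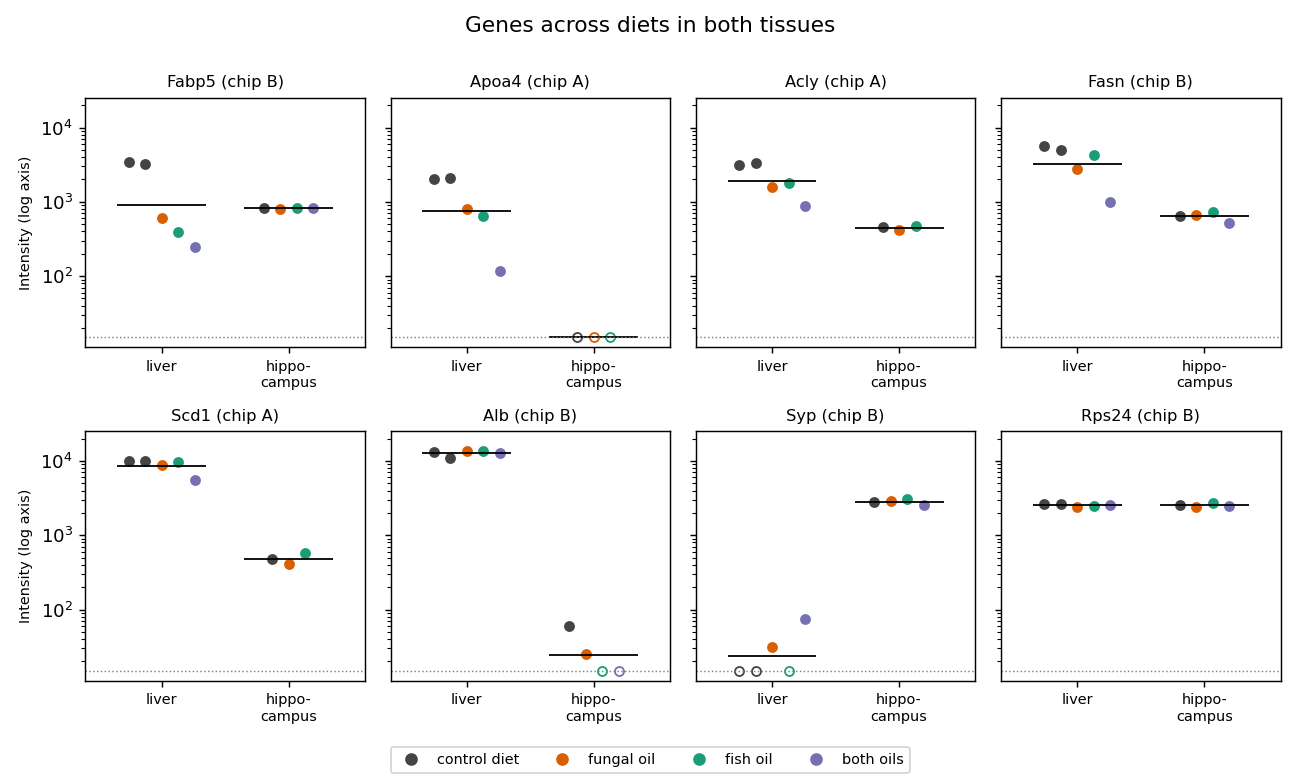
Scaled intensity (log axis) on each liver and hippocampus array, coloured by diet, with open circles for values under the floor of 15 (dotted line) and black bars for the mean of log2 values. Liver values of Fabp5, Apoa4, Acly and Fasn spread over diets, hippocampus values of Fabp5, Acly and Fasn lie closer together and those of Apoa4 are all under the floor, and Alb, Syp and Rps24 keep their tissue pattern in every diet.

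Few probe sets passed the test for a tissue difference that depends on oil. On chip A 16 of 3265 (0.490%) were called at an adjusted p under 0.05, and 259 had an unadjusted p under 0.05 (7.93%). On chip B 2 of 3270 (0.0612%) were called, both without a single gene symbol, and 171 had an unadjusted p under 0.05 (5.23%). Among the genes called was Slc27a2, a fatty acid transporter and acyl-CoA synthetase, which read 2961 and 3047 in control livers and 3343 to 3525 with oils, against 153 in the control hippocampus and 101 and 94 with fungal and fish oil (interaction 0.84, SE 0.11, adjusted p = 0.0427). The translation factor Eif1b read 217 to 276 in all livers, and 426 in the control hippocampus against 1248 and 1342 (-1.48, SE 0.18, adjusted p = 0.0419). In Polr2i, a subunit of RNA polymerase II, and Pcbd2, a dehydratase cofactor, liver was likewise steady (285 to 307 and 317 to 473) and the control hippocampus array stood apart (-23 against 154 and 127, and 16 against 136 and 136). Acta1, an actin of muscle, differed in liver instead, at 164 and 150 in controls and 4 to 21 with oils, against 165 to 197 in hippocampus (-3.06, SE 0.37). Slc27a2 and Eif1b were picked after their values were seen. On either chip the hippocampus side of every such value rests on 1 control array, without which no interaction could be fitted. On chip A the count fell to 0 without either control liver RNA, without the liver fish oil RNA or without the liver both-oils RNA, to 4 without the liver fungal oil RNA, and to 8 without the hippocampus fish oil RNA. On chip B it fell to 0 without the second control liver RNA or any of the hippocampus oil RNAs, was 1 without the liver fish oil RNA, and rose to 4 without the liver both-oils RNA and 6 without the liver fungal oil RNA.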

How the data were processed

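Liver and hippocampus RNA was measured on array types A and B. The authors deposited whole-number intensity values, many of them negative, and the software behind them is not given in the sources used here. Groups came from titles. Of the probe sets, 5541 on chip A and 2001 on chip B have a single gene symbol in the platform annotation, and 55 controls a chip stayed out of the fits. Arrays were scaled to a mean of 150 after trimming 2% at either end, floored at 15 and taken to log2. limma (3.58.1, R 4.3.3) fitted tissue and diet per chip by lmFit and eBayes with an intensity trend. The fits had 3 and 4 residual degrees of freedom, with Benjamini-Hochberg adjustment over all tested probe sets. The same fit was run on simulated data with planted differences. No floor was applied there, so that run does not cover calls near the floor. Adjusted p was at most 0.0321 for each gene named as called for tissue. At least N-fold sets the bright tissue's mean log2 against the floor. Sums of markers take negative intensities as 0. Members and gene lists were chosen with earlier results of these data known, and genes that only matched a family's name pattern were removed by name. Named genes were the 10 brightest and 10 largest each way, the 10 brightest alike, up to 10 interaction calls, and list members, brightest first and with isoenzyme pairs, from which those given were taken. Protein length was not analysed here. The number of arrays and signal over background limit precision. Alternatives were other scalings, floors and filters, no trend, no diet term, averaged probe sets (list medians only), and each RNA left out.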

Additional observations from a re-analysis of the deposited data

Results flagged for a closer look

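Dixon's test was run on genes named or considered for the text, on array quality values and on the ratios of 3′ to 5′ signal. Of 245 such sets of arrays 17, each of a gene, had a value far from the others, where chance gives about 5%. In 7 of them the liver fish oil array of chip A was high: Ahsg read 11409, Cyp2e1 13302, Gstp1 12768, Gstm1 6913, Hpd 7340, Fabp1 10491 and Rpl41 7521. In liver the fungal oil RNA was high for Oat (2493), the first control RNA for Gapdh (8519) and the both-oils RNA for Atp6v1b2 (632), whereas the both-oils RNA was low for Scd1 (5610) and the fish oil RNA low for Ddx5 (366). In hippocampus the both-oils RNA stood apart for Vamp2 (344), the control RNA for Rplp0 (2387) and the fish oil RNA for Oat (471), Pkm (4152) and Rpl3 (4584).

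A tissue difference that differed between oil and control diets, by the interaction test, was called for 18 probe sets. On chip A the difference of liver minus hippocampus was lower with oil for Polr2i (-3.20), Acta1 (-3.06), Hnrnpll (-2.87), Pcbd2 (-2.87), Kmt2e (-2.53), Dhrsx (-2.37), Fhl3 (-2.35), Rce1 (-2.33), a dimmer probe set of Cst3 (-2.22), Usp5 (-2.20) and Eif1b (-1.48). It was higher with oil for Sult1a1 (2.14), Ces2g (1.80), Usp19 (1.75), Slc27a2 (0.84) and a probe set without a single symbol (2.40). On chip B it was -2.17 and 1.85 for 2 probe sets without a single symbol. The first of these read 1739 and 1591 in control livers, 421, 358 and 362 with the oils, and 577 to 687 in hippocampus.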

How the results depend on the processing

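Of 194 genes considered for the text 162 were called, 152 kept their call under every alternative run for genes, 10 lost it under at least 1, 13 without a call gained one, and 0 reversed. The call of H2-Aa, a class II antigen gene, was lost at -0.71 under either other scaling. Testing only probe sets above the 75th percentile (1633 and 1635) gave 403 liver, 476 hippocampus and 553 alike calls on chip A and 386, 495 and 508 on chip B. Testing all probe sets gave 2507 alike of 6529 on chip A and 2607 of 6540 on chip B, beside 996 of 3265 and 786 of 3270 with the filter. On both chips the alike share was thus larger without the filter than with it. It did not rise steadily with the number tested, since the brighter subset also had a larger share than the filtered set. A probe set at the floor on every array has no difference between tissues. The part of such probe sets in the alike counts without the filter was not tested. Leaving out 1 RNA gave 620 to 638 liver, 954 to 1008 hippocampus and 815 to 995 alike calls on chip A, and 600 to 630, 966 to 1044 and 602 to 737 on chip B. Interaction counts moved with most settings. On chip A they numbered 0 with a floor 2.5 times as high, 0 in the brighter subset, 1 with median scaling, 5 with quantile normalization, 129 with no filter, and 0 to 17 with 1 RNA left out. On chip B they numbered 1, 5, 2, 4 and 54 in the same order, 0 without the intensity trend, and 0 to 6 with 1 RNA left out. The cause was not tested. The interaction model holds no diet term, so the alternative without one was not run for it. It could not be fitted on either chip without the only hippocampus control RNA. Among 62 list medians 6 changed sign under another scaling: all tested genes, chaperones, cytosolic ribosomal proteins, translation factors, immediate early genes and macrophage markers. Averaging a gene's probe sets was run for list medians only and changed the sign of 1, macrophage markers (-0.24 to 0.35). List counts under it were not run. Between 28.3% and 42.5% of probe sets on an array were at the floor, which limits what can be said of dim genes.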
